A study of Mus musculus with 9 samples.

Results

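The comparison described here was between the late and the early phase of inflammation in the muscularis externa (ME) after intestinal manipulation (IM), 24 h (IM24h) against 3 h (IM3h). It used 6 of the 9 libraries, 3 at each time, and the 3 control libraries served as background. All transcripts of the deposited table of changed genes and of the deposited table of gliosis genes were taken, each once, which gave 634 transcripts of 531 gene symbols. All mice were BL6 and between 8 and 12 weeks old, and the tissue was the ME of the small intestine, the muscle coat that holds the myenteric ganglia. In the IM groups the small bowel had been brought out of the abdomen and rolled with moist swabs, a model of postoperative ileus (POI). The controls are named sham operated by the labels and naive by the table headers, which was not resolved here, and the labels give no genotype or drug that differed between the groups. Libraries were read from the 3' end of polyadenylated RNA, and every value is an authors' group mean of normalized counts.

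Only group means were used, so no difference below could be set against the spread between libraries, and the fold is a description without a test. The labels are silent on whether 1 mouse gave 1 library. The library numbers of IM3h belong to a series of their own, apart from those of IM24h and the control, so a difference between number series and the difference between 3 h and 24 h cannot be told apart. By the study's methods 1 lane held all of the libraries. The depth of single libraries is unknown. Totals over all 9 libraries ranged from 12.1 to 4429 normalized counts per transcript in the table of changed genes (median 46.5) and from 12.7 to 17004 in the gliosis table (median 157). In bulk tissue, more cells of a type and more RNA per cell cannot be told apart. Of 23 genes of smooth muscle contraction, 8 were in the tables, among them Myl9, the regulatory light chain of smooth muscle myosin, with 2414 normalized counts in the control, and markers of neurons and glia were present as well.

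As background, handling of the bowel activates resident cells of the ME within hours. Immediate early genes are transcribed without new protein synthesis, and their short-lived RNAs mark recent stimulation. They are followed by chemokines that attract monocytes and neutrophils, by NF-kB target genes that include the inhibitors of NF-kB itself, and by secreted acute phase proteins. Monocyte-derived macrophages are known to enter the muscle coat later, and enteric glia can take on a reactive state that has been described with marker sets from reactive astrocytes.

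More transcripts were higher than lower at the later time. At least 2-fold higher at 24 h than at 3 h were 374 of the 634 transcripts (59%), and at least 2-fold lower were 176 (27.8%). At least 4-fold higher were 39.1% and at least 4-fold lower 12.3%. By gene, with the transcript of the largest total standing for each symbol, 329 of 531 were higher (62%) and 148 were lower (27.9%), 41.4% and 13.2% at 4-fold, and the median log2 ratio of the IM24h to the IM3h mean was 1.40. These shares are in part a product of how the tables were made. The table of changed genes holds only transcripts whose means were 2-fold or more apart between each pair of the 3 groups, so genes held at a similar level are missing from it by construction. In the gliosis table, which had no such selection, 47 of 155 transcripts were at least 2-fold higher at 24 h (30.3%), 24 were at least 2-fold lower (15.5%) and 63 lay within 1.5-fold (40.6%). Among the 229 transcripts with a total of at least 90 normalized counts the split was narrower, with 105 higher and 78 lower. The median log2 ratio in the gliosis table was 0.29, and subtracting it from every ratio changed the sign of 12 genes, each named as such where it appears below.

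The order of the 3 group means separated the transcripts into 6 patterns. The most frequent had the IM3h mean lowest and the IM24h mean highest, with the control between them, and held 212 transcripts. Their totals were mostly low, and 19.8% of them reached a total of 90. Means that were higher at each step from control to IM3h to IM24h held 170 transcripts, of which 47.1% reached that total. A peak at 3 h with a level still above the control at 24 h held 121 transcripts, of which 55.4% reached it. A further 58 transcripts were highest at 3 h and below the control at 24 h. The remaining 40 and 33 transcripts were below the control at both times, closer to the control at 24 h than at 3 h in the former and lowest at 24 h in the latter.

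Of the 309 transcripts at least 2-fold above the control at 3 h, the part of that excess still present at 24 h fell into separate ranges. It was below 0% in 53 transcripts, which were under the control at 24 h, from 0 to 25% in 37, from 25 to 50% in 62, from 50 to 100% in 16, and 100% or more in 141. Early increases were therefore mostly either more than 50% smaller or at least as large at the later time, a split to which the 2-fold selection contributes. Read the other way, 460 transcripts were at least 2-fold above the control at 24 h, and at 3 h 192 of these stood below the control, 147 had reached 0 to 50% of the later excess, 11 had reached 50 to 100%, and 110 had reached 100% or more.

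**Figure D1:**
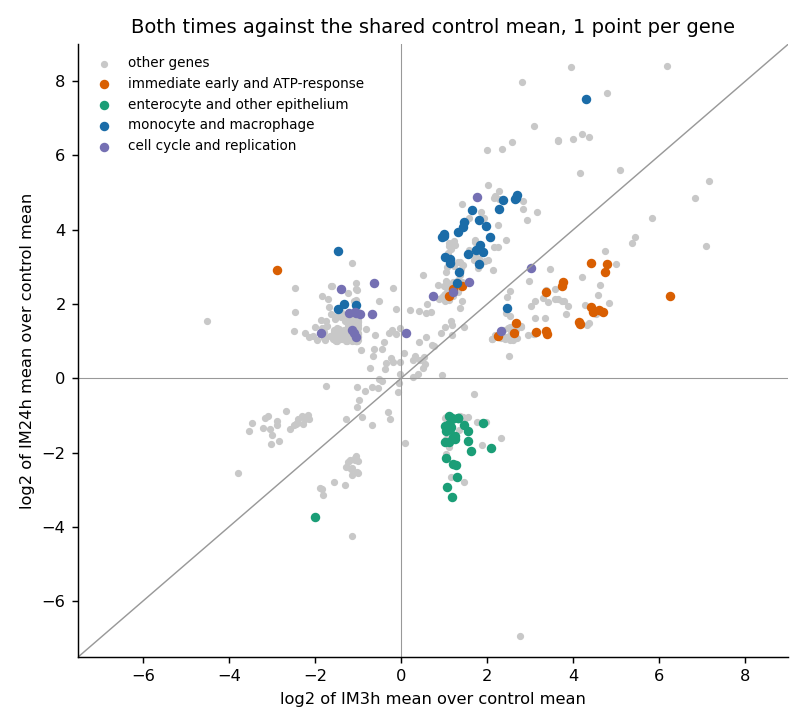
Each point is 1 of 531 genes, with log2 of the IM3h mean over the control mean on the x axis and log2 of the IM24h mean over the control mean on the y axis; points above the diagonal were higher at 24 h than at 3 h, and 4 gene lists are coloured. Both axes share the control mean, and the empty bands along the axes and the diagonal reflect the 2-fold selection of the table of changed genes; the enterocyte genes other than Cyp2s1 lie together at the lower right, and the monocyte and macrophage genes other than Cd14 lie above the diagonal.

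The genes with the lowest and the highest ratios had different kinds of function. With totals of at least 90, the 15 lowest ratios included those of genes of the absorptive epithelium (Apob, Fabp2, Sis, Clca4b, Slc5a1 and Pls1), of the immediate early and stress genes Fos, Atf3, Gadd45b and Hspa1a, of the neutrophil chemokine Cxcl1, and of Slc38a2, Thrsp and Itpkc. The 15 highest ratios included those of the secreted proteins Saa3, Lcn2, Ccl9, Timp1 and Chrdl2. The others belonged to genes of myeloid cells (Csf1r, Cd300lf, Unc93b1, Ms4a6c, Cd68 and Ctss), and to Slc29a3, Tasor, Snrk and the noncoding RNA H19. Saa3, a serum amyloid A protein of the acute phase, had 1.31 normalized counts in the control, 9.15 at 3 h and 332 at 24 h, 36.3-fold higher at the later time. Cxcl1 had 0.230 in the control, 31.0 at 3 h and 2.74 at 24 h, 11.3-fold lower at the later time.

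**Figure D2:**
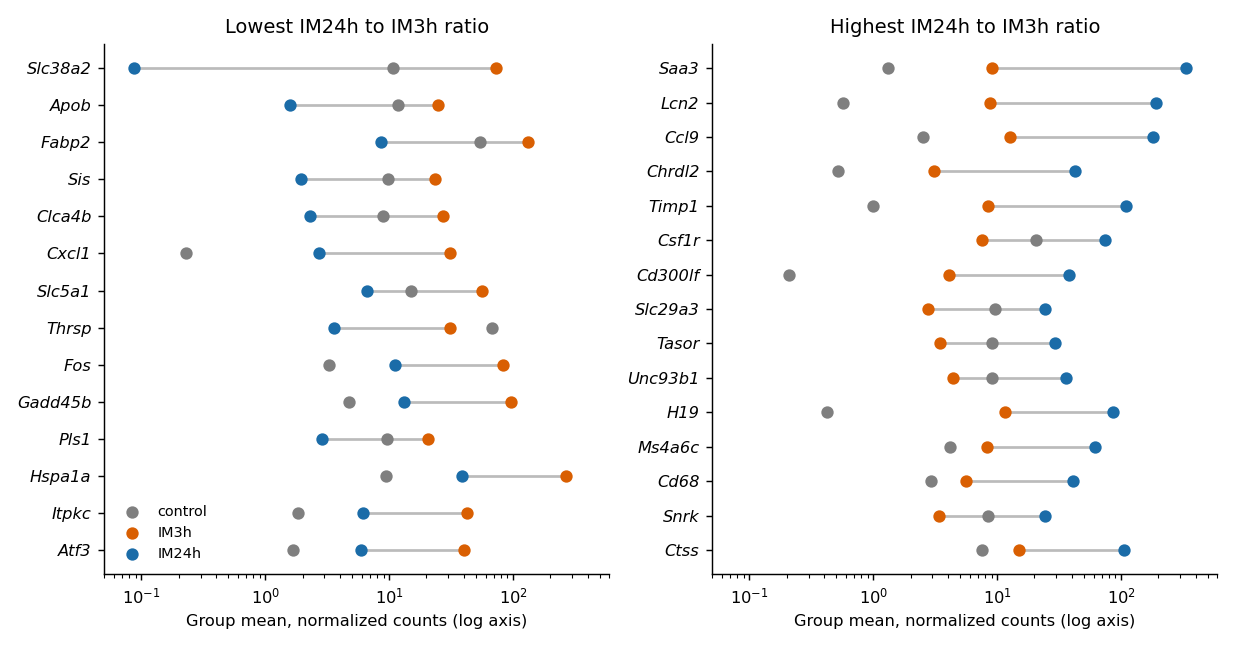
Group means of the control, IM3h and IM24h in normalized counts on a log axis for 14 of the 15 genes with the lowest IM24h to IM3h ratio and the 15 with the highest; each point is an authors' mean of 3 libraries without an error bar, and grey lines join IM3h and IM24h. Slc38a2 has the widest gap, from 72.7 at 3 h to 0.0867 at 24 h, and Saa3 has the widest gap among the increases, from 9.15 to 332.

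Promoter sequences are shown for 5 of these genes that stand for the main patterns, an early chemokine (Cxcl1), an immediate early gene (Fos), late acute phase genes (Saa3 and Lcn2) and an enterocyte gene (Fabp2). They run 5′ to 3′ along the gene from 250 bases before to 50 bases after the RefSeq start site in GRCm38.p6. Capitals mark every match, on either strand, to AP-1 (TGANTCA), NF-kB (GGG and CC with 5 bases of any kind between them), the heat shock element (TTC, GAA and TTC, each 2 bases apart) or C/EBP (TTGCNNAA).
Cxcl1, chr5:90890995-90891294, plus strand: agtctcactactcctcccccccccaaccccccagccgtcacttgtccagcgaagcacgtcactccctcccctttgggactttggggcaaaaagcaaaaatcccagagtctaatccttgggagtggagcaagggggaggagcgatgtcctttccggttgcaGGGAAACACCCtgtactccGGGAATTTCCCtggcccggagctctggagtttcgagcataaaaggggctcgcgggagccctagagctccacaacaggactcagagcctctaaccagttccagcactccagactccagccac
Fos, chr12:85473640-85473939, plus strand: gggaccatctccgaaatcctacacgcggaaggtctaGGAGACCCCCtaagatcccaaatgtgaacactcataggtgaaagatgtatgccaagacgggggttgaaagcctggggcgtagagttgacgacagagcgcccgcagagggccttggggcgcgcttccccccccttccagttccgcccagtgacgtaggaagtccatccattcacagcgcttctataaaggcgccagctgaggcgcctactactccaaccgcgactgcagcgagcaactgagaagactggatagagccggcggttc
Saa3, chr7:46715627-46715926, minus strand: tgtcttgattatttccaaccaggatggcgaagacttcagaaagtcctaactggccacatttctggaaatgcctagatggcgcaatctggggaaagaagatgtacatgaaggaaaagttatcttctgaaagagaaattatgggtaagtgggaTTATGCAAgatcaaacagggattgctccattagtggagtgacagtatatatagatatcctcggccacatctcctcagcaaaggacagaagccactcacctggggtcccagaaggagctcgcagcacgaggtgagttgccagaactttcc
Lcn2, chr2:32387690-32387989, minus strand: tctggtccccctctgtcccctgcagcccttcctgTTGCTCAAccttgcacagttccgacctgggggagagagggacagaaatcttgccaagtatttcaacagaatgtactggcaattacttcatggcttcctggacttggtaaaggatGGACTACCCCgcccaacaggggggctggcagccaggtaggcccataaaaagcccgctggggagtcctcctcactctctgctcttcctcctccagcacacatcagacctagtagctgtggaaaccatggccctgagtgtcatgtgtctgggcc
Fabp2, chr3:122894822-122895121, plus strand: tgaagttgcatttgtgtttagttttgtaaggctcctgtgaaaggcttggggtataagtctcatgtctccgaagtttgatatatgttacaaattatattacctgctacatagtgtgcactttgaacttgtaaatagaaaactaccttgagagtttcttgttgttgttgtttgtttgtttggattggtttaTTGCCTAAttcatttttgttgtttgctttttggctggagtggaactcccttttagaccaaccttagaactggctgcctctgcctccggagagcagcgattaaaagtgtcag

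In these windows Cxcl1 had overlapping NF-kB matches on both strands beginning at positions -90 and -71 from the start site, Fos had 1 NF-kB match beginning at -214, Saa3 had 1 C/EBP match beginning at -99, Lcn2 had a C/EBP match beginning at -216 and an NF-kB match beginning at -102, and Fabp2 had 1 C/EBP match beginning at -61. No AP-1 or heat shock letters were in the 5 windows. The NF-kB letters are permissive and were present in 53.5% of all 27025 genes of the promoter table. A gene was counted when any of its promoter windows matched. The letters were in 74.5% of the 55 genes with a promoter out of 70 at least 4-fold lower at 24 h. Of 220 genes at least 4-fold higher, 172 had a promoter, with the letters in 64.5%. Windows per gene averaged 1.22 over the promoter table, 1.22 for the lower genes and 1.30 for the higher genes. Median GC content was 52.7% over the promoter table, 59.3% for the lower genes and 56.3% for the higher genes. The part of GC content and of window number in the NF-kB shares was not tested. AP-1 letters were in 8.97% of the genes of the promoter table, 10.9% of the lower and 10.5% of the higher genes. C/EBP letters were in 12.2%, 9.09% and 16.9%, and heat shock letters in 0.662%, 1.82% and 0.581%, in the same order. Of the lower genes outside the enterocyte list, a set chosen after the data were seen, 32 had a promoter. NF-kB letters were in 87.5% of them, AP-1 letters in 12.5%, C/EBP letters in 3.13% and heat shock letters in 0%. Their median GC content was 61%, and they had 1.31 windows per gene.

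Immediate early and ATP-response genes were lower at the later time. Of 45 listed genes 23 were in the tables, and 19 were at least 2-fold lower at 24 h while 4 were at least 2-fold higher, beside 27.9% and 62% of all genes, with a median log2 ratio of -1.70. Fos, a subunit of the AP-1 transcription factor, had 3.25 normalized counts in the control, 83.3 at 3 h and 11.1 at 24 h, 7.48-fold lower. Egr1, a zinc finger transcription factor, had 11.0, 191 and 31.2 in that order, 6.12-fold lower, and Atf3, a stress-induced repressor, had 1.66, 40.2 and 5.87. Gem, a small GTPase, had 22.97, 241 and 52.3. All 19 of the lower genes were still above the control at 24 h. Over the 22 genes at least 2-fold above the control at 3 h, the median excess left was 25.1%, and it was 9.86% for Fos, 11.3% for Egr1 and 13.5% for Gem. Trib1, a pseudokinase, and Fosl2, another AP-1 subunit, kept more, 39.9% and 31.5%. The exceptions were Klf10, Ier5l, Snai1 and Elk3, and the last had 2.97 normalized counts in the control, 0.400 at 3 h and 22.2 at 24 h.

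Of the chemokines and cytokines some were higher at 3 h and others at 24 h. Of 40 listed genes 15 were in the tables, 6 at least 2-fold higher and 5 at least 2-fold lower, beside 62% and 27.9% of all genes. The median log2 ratio was 0.18, which turned to -0.12 on subtraction of the gliosis median and was -0.68 over the 4 genes with a total of at least 90. Ccl2, the main attractant of CCR2-bearing monocytes, had 1.29 normalized counts in the control, 184 at 3 h and 50.8 at 24 h, 3.63-fold lower, and 27.1% of its early excess was left. Cxcl10, a chemokine induced by interferon, had 0.817, 14.96 and 5.36, and Il11, a cytokine of the IL-6 family, had 0.441, 5.54 and 1.94. Ccl25, also among the lower genes, stands in the enterocyte list as well and had 1.59, 3.98 and 0.752. Ccl7, which also attracts monocytes, was not lower and had 1.27, 43.3 and 61.3, a 1.42-fold difference between the times. Ccl9, a chemokine of the mouse that binds CCR1, was 14.3-fold higher at 24 h, with 2.52, 12.7 and 182. Cxcl1 and Ccl2 were thus higher at 3 h and Ccl9 at 24 h.

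Of 25 listed receptors of cytokines and Socs feedback genes 13 were in the tables, 7 at least 2-fold higher and 3 lower, shares near the 62% and 27.9% of all genes. The median log2 ratio was 1.18, and 0.23 over the 7 genes whose total reached 90. The 3 lower genes were Socs3 and Cish, which are induced by cytokine receptors through STAT proteins and inhibit them, and Tnfrsf12a, the receptor for TWEAK. Socs3 had 7.66 normalized counts in the control, 205 at 3 h and 81.8 at 24 h, and Cish had 6.56, 66.6 and 20.1. Tnfrsf12a had 1.52, 36.2 and 7.26, 4.99-fold lower. The higher genes included the receptors of myeloid and lymphoid cells Csf2rb, Ccr1, Il2rg, Il1r2 and Csf1r, the receptor for CSF1, which had 20.6, 7.52 and 74.6.

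Feedback inhibitors of NF-kB, adhesion molecules and genes of cell death were mostly lower at 24 h, with 9 of 13 genes in the tables at least 2-fold lower and 4 at least 2-fold higher, out of 26 listed, beside 27.9% and 62% of all genes, and a median log2 ratio of -1.15. Nfkbia, which encodes the inhibitor that holds NF-kB in the cytoplasm, had 126 normalized counts in the control, 1065 at 3 h and 286 at 24 h, 3.73-fold lower with 17.0% of the early excess left. Icam1, an adhesion molecule for leukocytes, had 2.58, 50.2 and 10.2, 4.94-fold lower. Tnip1, another inhibitor of the pathway, had 9.61, 49.5 and 23.5. The 4 higher genes were Bcl2a1b, Ripk3, Nfkbie and Nkiras1. Bcl2a1b belongs to a family of near-identical mouse genes, so its reads could have been split among copies.

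Several heat shock and oxidative stress genes were lower at 24 h, whereas the small heat shock gene Hspb1 and 4 metabolic genes, Asns, Xdh, Angptl4 and Plin2, were at least 2-fold higher. Of 27 listed genes 15 were in the tables, 8 at least 2-fold lower and 5 at least 2-fold higher, beside 27.9% and 62% of all genes, with a median log2 ratio of -1.14. Within 2-fold lay Gsr, with 5.31, 7.81 and 6.99 normalized counts in the control, at 3 h and at 24 h, and Hspb6, a small heat shock protein of smooth muscle, with 331, 230 and 328. Hspa1a, an inducible chaperone, had 9.42 normalized counts in the control, 266 at 3 h and 38.4 at 24 h, 6.94-fold lower with 11.3% of the early excess left. Its near-identical copy Hspa1b had 8.69, 213 and 49.5, and reads of the pair may not have been separable. Gadd45b, a gene of the stress response, was 7.37-fold lower, and Cdkn1a, the cell cycle inhibitor p21, had 16.1, 193 and 70.3. Hmox1, which degrades haem, had 1.19, 49.1 and 14.9. Hspb1, a small heat shock protein, had 513, 924 and 2902, 3.14-fold higher, and Plin2, the coat protein of lipid droplets, had 23.2, 47.8 and 143.

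Genes of the absorptive epithelium were lower at 24 h than at 3 h without exception among those in the tables. Of 42 listed genes 29 were present, all 29 were at least 2-fold lower and 28 were at least 4-fold lower, beside 27.9% and 13.2% of all genes, and the median log2 ratio was -2.78. Fabp2, the intestinal fatty acid binding protein, had 54.3 normalized counts in the control, 133 at 3 h and 8.61 at 24 h, 15.5-fold lower. Apoa1, an apolipoprotein, had 110, 223 and 33.7, and Apoa4 had 25.7, 52.5 and 9.68. Sis, the brush border enzyme sucrase-isomaltase, had 9.73, 23.4 and 1.94, and Slc5a1, the sodium-glucose cotransporter, had 15.1, 56.2 and 6.58. Krt20, a keratin of the villus epithelium, had 24.1, 53.1 and 9.43. In 28 of the 29 the IM3h mean was above the control and the IM24h mean below it, and these made up 28 of the 52 genes with that order. Cyp2s1 was the exception, with 5.79, 1.45 and 0.433. Summed over the 29 genes, the level was 387 normalized counts in the control, 882 at 3 h and 118 at 24 h. Enterocytes belong to the mucosa and not to the ME, and the part of such tissue in the other results was not tested. Without the genes of this list, a count made after the data were seen, the number of transcripts in each direction stayed within 1.5-fold of the values above, but the median share of the 3 h excess left at 24 h moved from 60.4% to 131%.

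**Figure D3:**
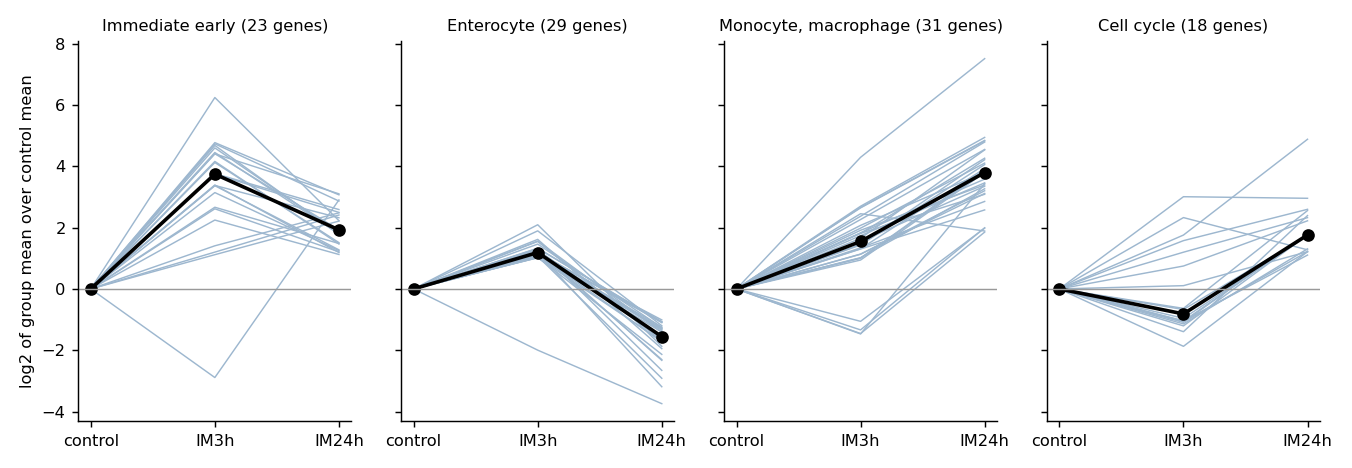
Log2 of the group mean over the control mean at the control, IM3h and IM24h for 4 gene lists; each thin line is 1 gene and the thick line is the median of the list, without error bars since only group means were used. Immediate early genes peaked at 3 h and stayed above the control in 19 of 23, enterocyte genes were above the control at 3 h and below it at 24 h in 28 of 29, monocyte and macrophage genes were higher at each step in 26 of 31, and cell cycle genes were below the control at 3 h and above it at 24 h in 11 of 18. Of all genes, 17.3%, 9.79%, 26.9% and 34.8% had these orders, in the same sequence.

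Secreted acute phase proteins had the highest ratios among genes with totals of at least 90. Of 22 listed genes of the acute phase and complement, 14 were present, 10 at least 2-fold higher at 24 h and 1 at least 2-fold lower, beside 62% and 27.9% of all genes, with a median log2 ratio of 1.97. Lcn2, a protein that binds bacterial siderophores, had 0.573 normalized counts in the control, 8.79 at 3 h and 192 at 24 h, 21.9-fold higher. Serpina3n, a protease inhibitor, had 3.27, 41.2 and 274, and Lrg1, a leucine-rich glycoprotein of the acute phase, had 2.16, 7.81 and 48.3. At 3 h, 2.37% of the later excess of Saa3 was present, 4.29% of that of Lcn2 and 14.01% of that of Serpina3n. Ptx3, a pentraxin, was the early member, with 0.210, 23.7 and 6.09. Complement genes followed another course, below the control at 3 h. C3, the central component, had 175, 27.3 and 95.4, 3.49-fold higher at 24 h than at 3 h and still below the control. C1ra and C4b, of the classical pathway, had 22.0, 12.6 and 54.8, and 22.5, 11.8 and 38.0, both above the control at 24 h.

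Genes of monocytes and macrophages were higher at 24 h. Of 41 listed genes 31 were in the tables, 30 were at least 2-fold higher and 21 at least 4-fold higher, beside 62% and 41.4% of all genes, and the median log2 ratio was 2.25. Ctss, a lysosomal protease, had 7.47 normalized counts in the control, 15.01 at 3 h and 106 at 24 h, and Cd68, a lysosomal glycoprotein, had 2.93, 5.64 and 40.8, 7.04- and 7.23-fold higher. Lgals3, a galectin, had 10.02, 22.0 and 92.2. Cd300lf, an inhibitory receptor of myeloid cells, had 0.209, 4.11 and 38.3. In 26 genes the mean was higher at each step, and over all 31 genes a median of 15.6% of the later excess was present at 3 h. Csf1r, Clec10a, Lair1 and Unc93b1 were below the control at 3 h. Cd14, a coreceptor for lipopolysaccharide, was the exception to the direction, with 1.99, 10.9 and 7.38. The sum over the list was 97.0 in the control, 202 at 3 h and 990 at 24 h.

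Neutrophil genes were few but all at least 2-fold higher, 5 of 5 in the tables out of 21 listed, beside 62% of all genes, with a median log2 ratio of 3.14. All 5 stood in the table of changed genes, where none could lie within 2-fold, and only Lcn2 reached a total of 90. S100a9, a subunit of calprotectin, had 0.0658 normalized counts in the control, 4.77 at 3 h and 22.2 at 24 h, and Il1r2, a decoy receptor for IL-1, had 0.124, 2.29 and 11.9. Mmp9, a gelatinase, had 3.03, 1.42 and 12.7. Lcn2 and Mmp9 are made by other cells as well. Genes of lymphocytes and mast cells were at low levels, with 4 of 4 present out of 20 listed at least 2-fold higher, beside 62% of all genes, and the sum over them was 3.02, 7.99 and 32.7. All 4 stood in the table of changed genes as well, and none reached a total of 90.

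Genes induced by interferon were higher at 24 h in 9 of 11 present out of 25 listed, and lower in 2, Cxcl10 and Ifit1bl2, beside 62% and 27.9% of all genes, with a median log2 ratio of 1.41 that lay at the median of all genes. Ifitm1, an interferon-induced membrane protein, had 9.87 normalized counts in the control, 28.0 at 3 h and 185 at 24 h, and Slfn2, a regulator of immune cell quiescence in the mouse, had 2.78, 10.7 and 24.9. Every interferon gene present stood in the table of changed genes, where none could lie within 2-fold. The genes of class I antigen presentation mostly lay within 2-fold but did not stand there, so these lists cannot be set against each other. All 7 genes present of 15 listed came from the gliosis table alone, 2 were at least 2-fold higher, and the median log2 ratio was 0.23, or -0.063 on subtraction of the gliosis median. B2m, the light chain of class I molecules, had 627, 844 and 878, and H2-D1, a class I heavy chain, had 94.7, 162 and 172. H2-K1 had 73.6, 139 and 170, and Tapbp, a chaperone of peptide loading, had 40.9, 49.2 and 57.7. The higher value at 24 h of B2m, H2-D1, H2-K1 and Tapbp turned into a lower one when the gliosis median was subtracted. Psmb8, a subunit of the immunoproteasome, had 12.8, 17.1 and 45.2.

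**Figure D4:**
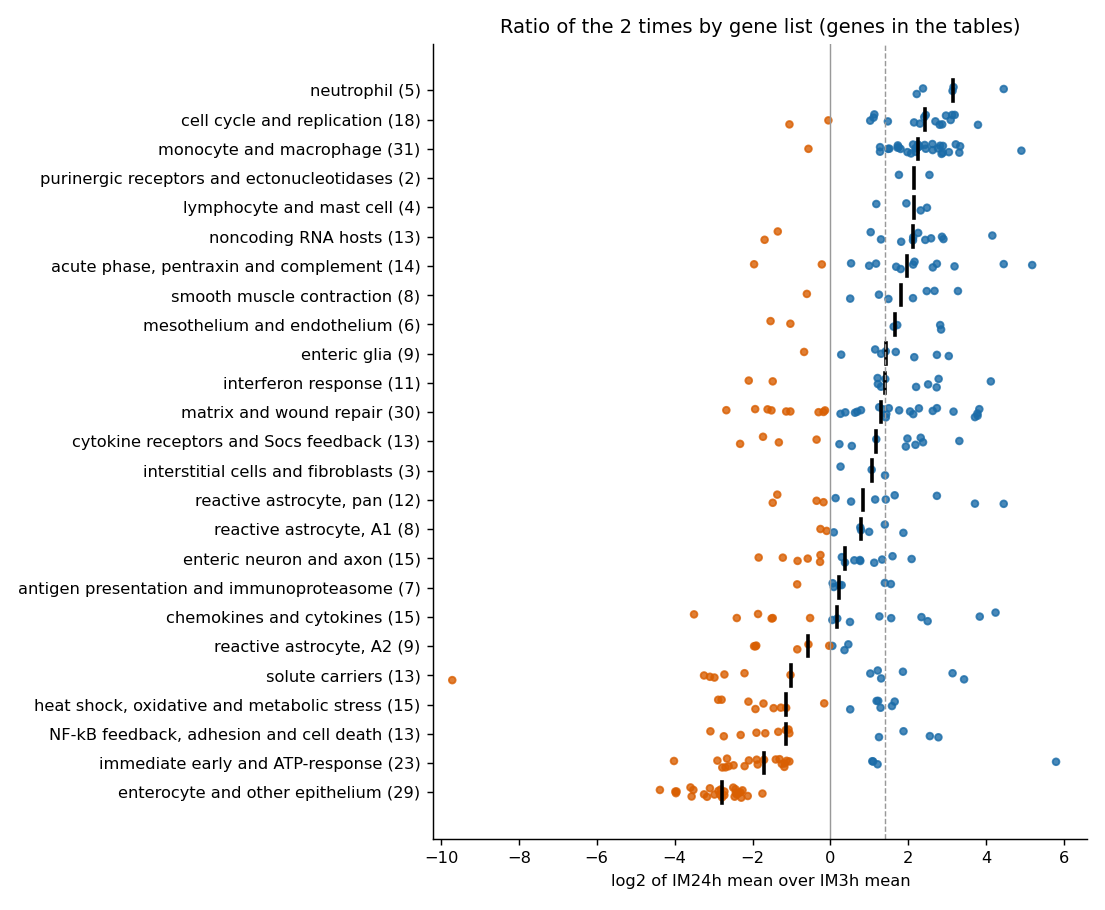
Log2 of the IM24h mean over the IM3h mean for each gene in the tables, by gene list, with the number of genes in parentheses; black bars are list medians, the solid line is no difference and the dashed line is the median of all genes, 1.40. The enterocyte list has the lowest median, -2.78, and the neutrophil list the highest, 3.14, and some genes stand in more than 1 list.

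Of 43 listed matrix and wound repair genes 30 were in the tables, 16 at least 2-fold higher and 6 at least 2-fold lower, with a median log2 ratio of 1.30. These values lie near those of all genes, 62%, 27.9% and 1.40, and the median was 0.69 over the 19 genes with a total of at least 90. Thbs1, a matricellular protein of early wounds, had 15.4 normalized counts in the control, 226 at 3 h and 59.2 at 24 h. The aggrecanase Adamts4 had 2.33, 99.8 and 32.6. The collagen chains Col5a1, Col5a2, Col6a1 and Col6a2 were below the control at 3 h and above it at 24 h, whereas Col12a1 had 14.9, 15.5 and 24.1. Col5a2 had 47.8, 23.2 and 95.6, Col6a1 had 71.5, 45.6 and 109, and Col6a2 had 65.2, 42.3 and 113. Timp1, an inhibitor of metalloproteinases, had 0.994, 8.42 and 110, 13.1-fold higher, and Tgfbi, a matrix protein induced by TGF-beta, had 27.2, 23.9 and 148. Tnc, a glycoprotein of wounds, was higher at each step with 79.8, 211 and 340. Cd44, the receptor for hyaluronan, was at a similar level at both times, with 38.3, 221 and 195, so that 86.0% of its early excess was left. Dcn, a proteoglycan of fibroblasts, had 506, 249 and 298, and its small difference between the times reversed on subtraction of the gliosis median.

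Genes of the cell cycle and DNA replication were mostly higher at 24 h, 16 of 18 present out of 34 listed, with 1 at least 2-fold lower, beside 62% and 27.9% of all genes, and a median log2 ratio of 2.43. In 11 of the 18 the IM3h mean lay below the control and the IM24h mean above it, an order that 34.8% of all genes had. Mcm2, a subunit of the replicative helicase, had 2.66 normalized counts in the control, 1.72 at 3 h and 15.7 at 24 h. Ncapd2, a condensin subunit, had 6.23, 2.82 and 15.4, and Cdk1, the mitotic kinase, had 1.41, 0.610 and 4.77. Ctps, which makes CTP, had 17.9, 53.3 and 108. Nasp, a histone chaperone, was the lower gene, with 7.91, 39.7 and 19.2. Levels in this list were low, and only Ctps and Nasp reached a total of 90, so that the median at that minimum rests on a pair of genes in opposite directions.

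Genes of muscle and nerve had no common size of difference. Myl9 had 2414 normalized counts in the control, 1963 at 3 h and 1291 at 24 h, 1.52-fold lower at the later time. Nexn, an actin-binding protein, had 101, 35.0 and 223, 6.38-fold higher at 24 h, and Flnc, a filamin of muscle, had 42.2, 81.2 and 193. Over the 8 smooth muscle genes in the tables, 6 were at least 2-fold higher and none was at least 2-fold lower, beside 62% and 27.9% of all genes. Of 26 neuronal and axonal genes 15 were present, 4 at least 2-fold higher and 2 lower, beside 62% and 27.9% of all genes. The other 9 lay within 2-fold, which only genes of the gliosis table could do. From that table alone came 10 of the 15, so these counts also depend on the table of origin. Gap43, a growth cone protein, had 40.4, 31.3 and 48.0, and Epha4, a guidance receptor, had 40.7, 34.1 and 19.02. Rtn4, which encodes Nogo and is not restricted to neurons, had 19.1, 63.3 and 191. The lower pair was Foxp2, with 41.2, 20.5 and 8.79, and Neto2, with 4.42, 4.70 and 1.31.

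Glial genes were mostly higher at 24 h, 7 of 9 present out of 17 listed beside 62% of all genes, with a median log2 ratio of 1.42 that lay at the median of all genes. Lgi4, a secreted glial ligand, had 7.71 normalized counts in the control, 2.24 at 3 h and 18.4 at 24 h. Vim, an intermediate filament that many cells share, had 239, 360 and 965. Nes, the intermediate filament nestin, was higher at 3 h, with 5.31, 28.5 and 17.9. Gja1, the gap junction protein connexin 43, had 161, 110 and 134, and the direction between the times reversed on subtraction of the gliosis median. Gfap, the glial intermediate filament, depended on the isoform: transcript NM_010277 had 2.79, 11.3 and 25.2, whereas NM_001131020 had 4.33, 10.6 and 5.13, so the former was 2.22-fold higher and the latter 2.07-fold lower at 24 h.

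The marker sets of reactive astrocytes, applied to the ME, differed in their median ratio. For comparison, 62% of all genes were at least 2-fold higher and 27.9% lower, and 30.3% and 15.5% of the transcripts of the gliosis table. Of the pan-reactive set 12 of 13 genes were present, 6 at least 2-fold higher and 2 at least 2-fold lower, with a median log2 ratio of 0.84, or -0.022 over all of their transcripts. Of the A1 set 8 of 12 were present, 2 higher and none lower, with a median of 0.78. Of the A2 set 9 of 13 were present, none higher and 3 lower, with a median of -0.56, beside a median of 0.29 over the transcripts of the gliosis table. From the gliosis table alone came 6 of the 12 pan-reactive, 7 of the 8 A1 and 7 of the 9 A2 genes. The counts past 2-fold therefore also depend on the table of origin. The 3 lower A2 genes were Emp1, a membrane protein, with 13.1, 74.7 and 20.0, Sphk1, which makes sphingosine 1-phosphate, with 1.81, 57.7 and 15.2, and Ptx3. Ptgs2, the inducible cyclooxygenase, had 8.77, 50.6 and 28.1, and 46.1% of its early excess was left. S100a10, an annexin partner, had 68.5, 140 and 179. Several of these genes also stand in other lists, such as Lcn2, Timp1 and Serpina3n in the pan-reactive set, and Gfap aside none is restricted to glia.

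Among the genes of the gliosis table with totals of at least 90, the lowest ratios were those of Cxcl1, Gadd45b, Tnfrsf12a, Icam1 and Klf5, and the highest were those of Timp1, Cd68, Serpina3n, Tgfbi and Anxa3. Klf5, a transcription factor of proliferating epithelium and muscle, had 14.5 normalized counts in the control, 47.0 at 3 h and 10.9 at 24 h. Anxa3, an annexin, had 13.4, 9.48 and 56.9. Of 18 purinergic receptors and ectonucleotidases only Cd38 and P2ry14 were in the tables. Both were at least 2-fold higher, beside 62% of all genes. Both stood in the table of changed genes, where none could lie within 2-fold, and neither reached a total of 90. Cd38, which consumes NAD, had 2.05, 5.28 and 17.9, and P2ry14, a receptor for UDP-sugars, had 2.71, 1.04 and 6.06.

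Solute carriers had no common direction, 6 higher and 7 lower of 13 present out of 15 listed, beside 62% and 27.9% of all genes. Among the lower genes, Slc5a1, Slc13a2, Slc15a1 and Slc6a19 also stand in the enterocyte list. Slc38a2, an amino acid transporter, had the lowest ratio of all 531 genes by its transcript NM_001355633, with 10.7 normalized counts in the control, 72.7 at 3 h and 0.0867 at 24 h. Because the later mean is close to 0, the size of this difference depends on the pseudocount: the log2 ratio was -9.71, and -6.08 with 1 normalized count added to both means. Slc29a3, a lysosomal nucleoside transporter, had 9.58, 2.78 and 24.5, 8.79-fold higher at 24 h. Outside the lists, Thrsp, a regulator of lipid synthesis, was lower at each step with 68.0, 30.7 and 3.61.

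Noncoding RNAs were at least 2-fold higher at 24 h in 11 of 13 present out of 16 listed and lower in 2, beside 62% and 27.9% of all genes. H19, an imprinted noncoding RNA of fetal tissue, had 0.422 normalized counts in the control, 11.6 at 3 h and 86.4 at 24 h, 7.48-fold higher at the later time. Gas5, a host of small nucleolar RNAs, had 4.01, 9.99 and 35.2. Gm13889 was on the list although its accession is that of a coding transcript, and it had 68.3, 404 and 158. The remaining tissue lists were small. Of 10 listed genes of interstitial cells and fibroblasts 3 were present. At least 2-fold higher were Pdpn and Wnt5a, beside 62% of all genes. Wnt5a, a Wnt ligand, had 49.2, 11.1 and 23.1. Of 6 genes of mesothelium and endothelium 4 were higher, among them Egfl7, a secreted endothelial factor, with 3.56, 1.74 and 12.5, and 2 were lower, Procr and Ets1, shares near those of all genes.

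Single isoforms limit what some of these values describe. Of the 81 genes with more than 1 transcript, 49 had log2 ratios equal within 0.01 for all of their transcripts, so reads may have been shared out among isoforms. In 3 genes, Gfap, Osbpl1a and Tfdp2, isoforms were at least 2-fold apart in opposite directions. Osbpl1a, an oxysterol-binding protein, had 11.0, 4.97 and 0.734 normalized counts by NM_001252491 and 0.590, 5.23 and 13.1 by NR_045524. Reads of close gene copies, such as H2-D1 with H2-K1 and Clca4a with Clca4b, may likewise have been shared, and their separate values are uncertain.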

How the data were processed

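RNA-Seq was performed on the ME of the small intestine of BL6 mice, in 9 libraries that the labels put into 3 groups of 3. RNA was extracted by a Qiagen protocol, and libraries were made with the QuantSeq 3' FWD kit and sequenced single-end. Partek, with no version, is the tool that the submitters' processing notes name. Which aligner, genome build and normalization were used is not given in the sources used here. The authors deposited group means and totals of normalized counts per RefSeq transcript, an expression signal, and each total equalled 3 times the sum of the 3 group means. Their tables also hold ratios, folds, p-values and false discovery rates of the authors' own comparisons, and a further table holds gene ontology terms; none of these was used. The depth of each library is therefore unknown, and no test, interval or standard deviation was computed.

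Each transcript was taken once over both tables, and the IM24h mean was divided by the IM3h mean. A difference was counted from 2-fold either way, and no pseudocount was added. The excess left at 24 h is the IM24h minus the control mean, in percent of the IM3h minus the control mean, for transcripts at least 2-fold above the control at 3 h. Genes are represented by the transcript with the largest total. Lists held 557 genes in 25 lists, of which 288 were in the tables. Members and lists were chosen with earlier results of these data known, and many list genes were written with the symbols of the tables in view, so the lists support nothing on their own. Named genes were the 15 lowest and 15 highest ratios among genes reaching a total of 90, the 5 of each in the gliosis table, and the 4 list members with the largest totals. Some genes that this rule takes are not reported here. All other genes were named after their values were seen. Promoters of 404 of the 531 symbols came from a RefSeq table of GRCm38.p6, and no coordinates were taken from the deposited tables. Alternatives added a pseudocount of 1, required a total of at least 90, counted by gene or by table, used 4-fold, or subtracted the gliosis median. After the data were seen, counts without the enterocyte list and without the monocyte, macrophage and neutrophil lists were added. Scripts were tested on simulated data. Python 3.11.15, pandas 2.3.3, NumPy 2.4.6 and matplotlib 3.10.9 were used.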

Additional observations from a re-analysis of the deposited data

How the results depend on the processing

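The split of higher against lower transcripts depended on which transcripts were counted. With a total of at least 90, 105 transcripts were at least 2-fold higher at 24 h and 78 lower; in the gliosis table alone, 47 and 24; and at 4-fold, 248 and 78. With a total of at least 90 the 6 orders of the means held 80 transcripts (control, IM3h, IM24h from low to high), 67 (control, IM24h, IM3h), 42 (IM3h, control, IM24h), 15 (IM3h, IM24h, control), 14 (IM24h, control, IM3h) and 11 (IM24h, IM3h, control), since 229 transcripts remained. The median share of the 3 h excess left at 24 h, 60.4%, was 33.9% with a pseudocount of 1, 39.0% with a total of at least 90, and 131% without the enterocyte list, an alternative chosen after seeing the data. The median log2 ratio of the cell cycle list was -0.015 at a total of at least 90, where 2 genes were left. That of the solute carriers was -1.02 by gene and 1.02 over all transcripts. By gene 6 solute carriers were higher and 7 lower, beside 62% and 27.9% of all genes. None lay within 2-fold, and 16 transcripts stood for the 13 genes. At a total of at least 90 the list medians were also -0.68 for chemokines and cytokines, 0.23 for cytokine receptors, 0.69 for matrix, -1.38 for the A2 set and -2.06 for solute carriers. With a pseudocount of 1 they were 2.01 for neutrophil and 1.62 for cell cycle genes. Subtracting the gliosis median turned the list medians of chemokines and cytokines (0.18 to -0.12) and of antigen presentation (0.23 to -0.063) and kept the sign of the others. No paired analysis was possible because only group means were used, and the replicate numbers 1 to 3 were assigned here in accession order since the labels give none. With group means alone no library could be left out in turn.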
